A study of Mus musculus with 12 samples.

Results

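Transglutaminases are calcium-dependent enzymes that cross-link proteins by joining a glutamine of one chain to a lysine of another, which makes stable, protease-resistant assemblies. Tgm1 encodes the membrane-anchored transglutaminase of keratinocytes, which builds the cornified envelope of the epidermis. Tgm2 encodes tissue transglutaminase, a widely made enzyme that cross-links extracellular matrix, binds fibronectin and also binds GTP. F13a1 encodes the catalytic A subunit of coagulation factor XIII, which stabilises fibrin clots and is made by platelets and by macrophages. The transcripts of these 3 genes were followed in the spinal cord, out of 45906 genes in the deposited table. The genes were taken by symbol, and Tgm1 was selected on its large rise with SOD1-G93A in these same libraries, so its values are given as a description with no test. Tgm2 and F13a1 were tested in every comparison.

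The libraries were made from whole spinal cords of 12 mice aged 7 months, 3 for each of 4 genotypes. Plekhg5+/+ mice carried neither alteration. Plekhg5-/- mice lacked Plekhg5, an activator of the small GTPase Rab26 that takes part in autophagy at presynaptic terminals, in all cells. Plekhg5+/+ SOD1-G93A mice carried a low copy transgene for human SOD1 with the G93A substitution found in familial amyotrophic lateral sclerosis (ALS), and Plekhg5-/- SOD1-G93A mice carried both. All 4 genotypes were on a C57BL/6 background. The replicate numbers name separate mice, and sexes were mixed: transcripts of Y-linked genes were present in 3, 2, 2 and 1 of the 3 libraries in the order of genotypes above. The libraries held 30415643 to 38743628 counts. Plekhg5 itself was lower in the Plekhg5-/- than in the Plekhg5+/+ mice (log2 fold change −2.53, standard error [SE] 0.143, adjusted p = 5.39e-06, edgeR), and lower likewise among SOD1-G93A mice (−2.40, SE 0.142, adjusted p = 9.06e-06). Microglial and astrocyte markers, oligodendrocyte markers and motoneuron markers were all present in each genotype, as the tissue label requires.

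Tgm1 is annotated on chromosome 14 of GRCm38.p6 from 55700009 to 55713921 on the minus strand, with 3239 bases of exon. Tgm2 is annotated on chromosome 2 from 158116405 to 158146392 on the minus strand, with 3549 bases of exon. F13a1 is annotated on chromosome 13 from 36867178 to 37050244 on the minus strand, with 3927 bases of exon. Summed over the 12 libraries, Tgm1 had 463 counts, F13a1 2332.5 and Tgm2 10469. All 3 genes passed the filter on low counts. Tgm1 passed it through the SOD1-G93A libraries, since no other library had more than 9 counts of it. The long non-coding RNA genes Gm30489 and Gm30240 overlap F13a1 on the opposite strand, and reads were counted by strand.

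Tgm1 has a pair of promoter windows in the RefSeq table (GRCm38.p6), each reaching from 250 bases before to 50 bases after an annotated start. They are shown because Tgm1 is the member chosen for its difference between genotypes. The windows lie at chr14:55713443-55713742 and chr14:55713039-55713338, both on the minus strand, with 104 bases between them. Both lie inside the deposited gene, whose first base on the minus strand is 55713921, so neither holds the sequence before that base. Capitals mark matches to 5 short motifs that were searched on both strands.

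Tgm1 upstream window: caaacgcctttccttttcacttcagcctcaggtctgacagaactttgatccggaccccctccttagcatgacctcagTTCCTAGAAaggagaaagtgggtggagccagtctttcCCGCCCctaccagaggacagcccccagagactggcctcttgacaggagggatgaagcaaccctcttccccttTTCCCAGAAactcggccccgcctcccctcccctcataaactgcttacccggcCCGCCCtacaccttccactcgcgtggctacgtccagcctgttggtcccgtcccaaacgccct

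Tgm1 downstream window: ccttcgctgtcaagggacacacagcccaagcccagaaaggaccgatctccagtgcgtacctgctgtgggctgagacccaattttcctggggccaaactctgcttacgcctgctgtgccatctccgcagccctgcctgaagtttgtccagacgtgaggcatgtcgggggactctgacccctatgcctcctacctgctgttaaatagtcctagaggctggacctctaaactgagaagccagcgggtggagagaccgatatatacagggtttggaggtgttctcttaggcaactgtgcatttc

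The capitals in the upstream window are 2 copies of the GC box GGGCGG, both on the opposite strand, and 2 copies of the palindrome TTCNNNGAA bound by STAT factors. The TTCNNNGAA copies begin at −173 and −64 from the start annotated for this window, the GC boxes at −136 and −12, and none of the 4 matches overlaps another. Of the 32851 promoter windows in the table, 8.3% hold TTCNNNGAA and 35.7% hold GGGCGG. The other motifs searched were the AP-1 site TGANTCA (7.81% of windows), the PU.1 core GAGGAA (28.3%) and the TATA box TATAAA (13.6%), and none of these letters occurred in either Tgm1 window. Both F13a1 windows held GAGGAA, with 2 copies in the upstream and 1 in the downstream window. G and C made up 59% of the upstream and 55.7% of the downstream Tgm1 window, and 42.7% and 54.7% of the corresponding F13a1 windows. Entries were found for 9 of the 10 genes of the family, and Tgm2 had none.

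In mice with intact Plekhg5, the SOD1-G93A transgene went along with a steep difference in Tgm1 and with no detected change in Tgm2 or F13a1. Tgm1 had 3, 1 and 5 counts in the Plekhg5+/+ libraries, or 0.087, 0.0315 and 0.153 in CPM (counts scaled to the library size by TMM normalisation). In Plekhg5+/+ SOD1-G93A mice it had 276, 58 and 39 counts, or 8.57, 1.91 and 1.17 CPM. Every Plekhg5+/+ SOD1-G93A library lay above every Plekhg5+/+ library, and the first SOD1-G93A mouse stood far above the other 2. Such a separation of the groups was found for 20.6% of all genes tested in this comparison. The mean rose from 0.0905 ± 0.0609 to 3.89 ± 4.08 CPM (SD, n = 3 each). The fitted log2 difference was 5.36 (SE 0.855), which put Tgm1 at rank 2 of the genes tested other than human SOD1. The summed counts, 373 against 9, gave a ratio of 42.8, and 276 of the 373 counts came from the first SOD1-G93A mouse. Without the first Plekhg5+/+ SOD1-G93A mouse, the mean of that group was 1.54 CPM and the fitted log2 difference 4.02. In whole spinal cord, more cells of a type and more RNA per cell cannot be told apart.

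**Figure D1:**
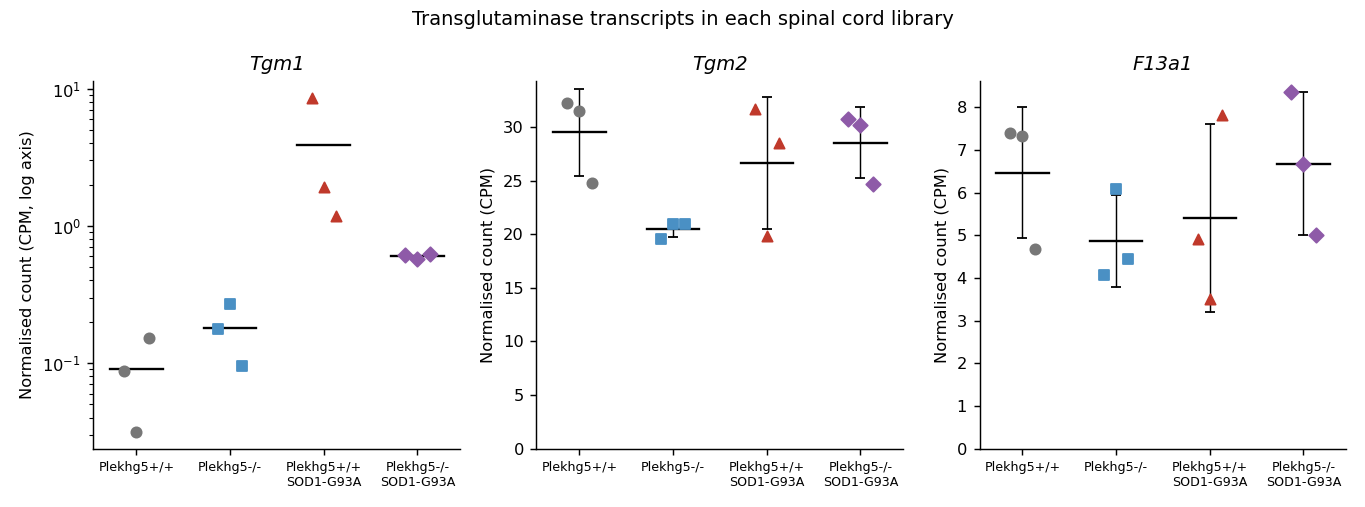
Normalised counts (CPM) of Tgm1, Tgm2 and F13a1 in the 12 libraries by genotype, each symbol being a mouse and each horizontal line the mean of 3 mice, with SD bars for Tgm2 and F13a1 and a log axis for Tgm1. Tgm1 lies between 1.17 and 8.57 CPM in Plekhg5+/+ SOD1-G93A mice and at or below 0.271 CPM in all 6 mice without the transgene, whereas the Plekhg5-/- libraries lie at 19.6 to 21 CPM for Tgm2.

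Tgm2 had 32.2, 31.5 and 24.8 CPM in Plekhg5+/+ and 31.7, 19.8 and 28.5 CPM in Plekhg5+/+ SOD1-G93A mice. The groups overlapped, and the second SOD1-G93A mouse was the lowest of the 6. The log2 fold change was −0.14 (SE 0.152, adjusted p = 0.672, edgeR's quasi-likelihood test). F13a1 had 7.39, 7.33 and 4.69 CPM in Plekhg5+/+ and 4.91, 3.51 and 7.83 CPM in Plekhg5+/+ SOD1-G93A mice, again with overlap. Its log2 fold change was −0.25 (SE 0.287, adjusted p = 0.693, same test). In this comparison 2.47% of the 20155 genes tested were called at an adjusted p under 0.05 (498 genes, 422 of them higher), and Tgm2 and F13a1 were not among them. The signs of both estimates were negative, opposite to that of Tgm1.

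In the Plekhg5-/- background, Tgm1 was again higher with the transgene, but by less. It had 6, 9 and 3 counts in Plekhg5-/- mice (0.176, 0.271 and 0.0947 CPM) and 20, 19 and 24 counts in Plekhg5-/- SOD1-G93A mice (0.617, 0.577 and 0.621 CPM). Each library with the transgene lay above each library without it, as it did in either direction for 12.5% of all genes tested. The mean rose from 0.18 ± 0.0884 to 0.605 ± 0.0246 CPM (SD, n = 3 each), and the fitted log2 difference was 1.72 (SE 0.884). The summed counts of 63 against 18 gave a ratio of 3.33. Set against the mean of the mice without the transgene on the same background, Tgm1 was 94.7, 21.1 and 12.9 times as high in the Plekhg5+/+ SOD1-G93A libraries and 3.42, 3.2 and 3.44 times as high in the Plekhg5-/- SOD1-G93A libraries.

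Tgm2 and F13a1 had higher estimates with the transgene in the Plekhg5-/- background, and neither passed the test. Tgm2 had 19.6, 21 and 21 CPM in Plekhg5-/- and 30.7, 30.2 and 24.7 CPM in Plekhg5-/- SOD1-G93A mice, so the groups did not overlap. Its log2 fold change was 0.47 (SE 0.154, unadjusted p = 0.00885, adjusted p = 0.722, edgeR). F13a1 had 4.07, 6.09 and 4.45 CPM in Plekhg5-/- and 8.36, 6.68 and 5 CPM in Plekhg5-/- SOD1-G93A mice, with overlap (log2 fold change 0.45, SE 0.288, adjusted p = 0.95, edgeR). The share of all genes called here was 0.00496%, a single gene, the human SOD1 transgene.

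Among SOD1-G93A mice, Tgm1 was lower without Plekhg5. All 3 Plekhg5-/- SOD1-G93A libraries, at 0.577 to 0.621 CPM, lay below all 3 Plekhg5+/+ SOD1-G93A libraries, at 1.17 to 8.57 CPM. In this comparison 19.5% of all genes tested had groups that did not overlap. The fitted log2 difference was −2.68 (SE 0.642), and −1.34 without the first Plekhg5+/+ SOD1-G93A mouse. The ratio of summed counts was 6.42 (Plekhg5+/+ over Plekhg5-/-). Tgm2 did not pass the test (log2 fold change 0.09, SE 0.152, adjusted p = 0.852, edgeR), nor did F13a1 (0.30, SE 0.286, adjusted p = 0.751). Over all genes tested, 0.0347% were called (7 genes). The transgene itself, counted as human SOD1, was at 4990 ± 612 CPM with and 5000 ± 97.1 CPM without Plekhg5 (SD, n = 3 each).

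Without the transgene, Tgm1 was at 1 to 9 counts in all 6 libraries and its groups overlapped. Its log2 fold change between Plekhg5-/- and Plekhg5+/+ mice was 0.97 with a SE of 1.24. It is given without a test, since Tgm1 passed the filter on low counts only through the transgenic libraries, and a difference of this size was not detectable at this depth. The ratio of summed counts, 18 against 9, was 2 with a 95% exact interval of 0.852 to 5.05 (counting error only). Tgm2 was lower in every Plekhg5-/- library, at 20.5 ± 0.809 CPM, than in any Plekhg5+/+ library, at 29.5 ± 4.11 CPM (SD, n = 3 each). Its log2 fold change was −0.53 (SE 0.154, unadjusted p = 0.00477), and the adjusted p of 0.735 (edgeR) did not pass. Separated groups in either direction occurred for 8.74% of all genes tested in this comparison. F13a1 was at 4.87 ± 1.07 CPM in Plekhg5-/- and 6.47 ± 1.55 CPM in Plekhg5+/+ mice (SD, n = 3 each), with overlap and a log2 fold change of −0.41 (SE 0.288, adjusted p = 0.986, edgeR). Here 0.0298% of all genes were called (6 genes).

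**Figure D2:**
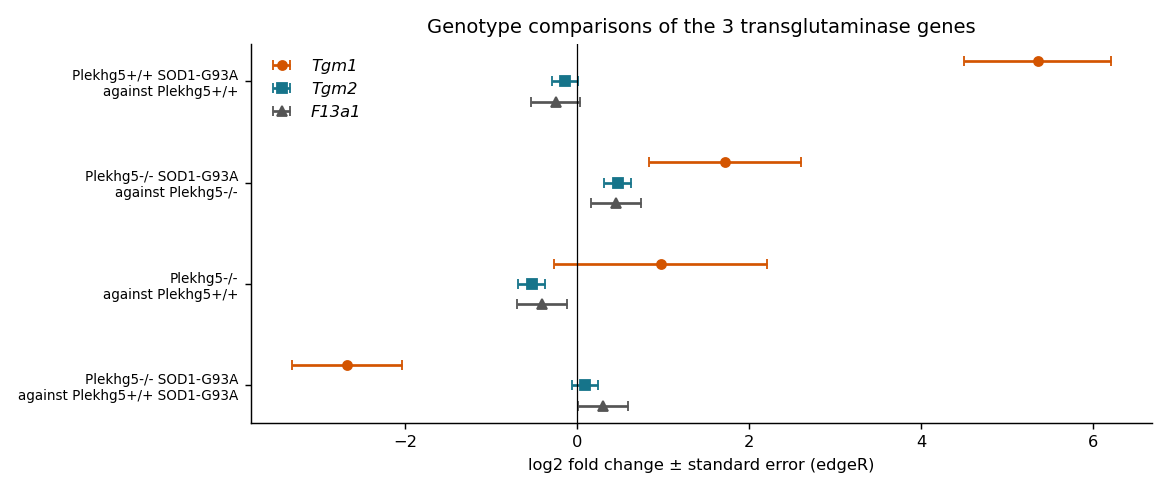
log2 fold changes (x axis, points) with their standard errors (bars) from the edgeR fit for Tgm1, Tgm2 and F13a1 in the 4 comparisons of genotypes (y axis). Tgm1 spans −2.68 to 5.36, whereas Tgm2 stays between −0.53 and 0.47 and F13a1 between −0.41 and 0.45.

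The interaction asks whether the transgene effect differed between Plekhg5-/- and Plekhg5+/+ mice. For Tgm1 the difference between the log2 effects was −3.64 (SE 1.4), given without a test. For Tgm2 it was 0.62 (SE 0.216, unadjusted p = 0.0138, adjusted p = 0.457, edgeR), and for F13a1 0.71 (SE 0.406, adjusted p = 0.601). edgeR called 0 genes (0%) for the interaction, with 1824 genes at an unadjusted p under 0.05, while DESeq2 called 95. Averaged over both backgrounds, the transgene effect on the log2 scale was 3.54 for Tgm1 (SE 0.623), 0.17 for Tgm2 (SE 0.108, adjusted p = 0.544, edgeR) and 0.10 for F13a1 (SE 0.203, adjusted p = 0.896). For that average 1.22% of all genes were called (245 genes, 230 of them higher).

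Compared per exon length, as RPKM (CPM divided by the exon length in kilobases), Tgm2 was the most abundant of the 10 family genes in each genotype and F13a1 came next. In Plekhg5+/+ mice Tgm2 was at 8.31 RPKM (range 6.98 to 9.08), F13a1 at 1.65 (1.19 to 1.88) and Tgm1 at 0.0279 (0.00972 to 0.0473). Tgm1 then stood sixth, below Tgm4, Tgm7 and Epb42, and its range overlapped that of Tgm3, the next in order. In Plekhg5-/- mice the leading levels were 5.78 RPKM for Tgm2 and 1.24 for F13a1, and Tgm1 (0.0557) was again sixth, with a range that overlapped Epb42 above and Tgm3 below. In Plekhg5+/+ SOD1-G93A mice Tgm1 stood at 1.2 RPKM (0.361 to 2.65), after Tgm2 at 7.52 and F13a1 at 1.38, and its range overlapped those of F13a1 and of Epb42 (0.249). In Plekhg5-/- SOD1-G93A mice it kept the third place at 0.187 RPKM, with no overlap with F13a1 above (1.7) or Tgm4 below (0.129). The range of Epb42 in that genotype, 0.0374 to 0.238 RPKM around a lower mean of 0.111, spanned that of Tgm1.

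Tgm1 thus made up 0.0867% to 1.05% of the summed RPKM of the family in the 6 mice without the transgene. Its share was 19.5%, 7.88% and 3.31% in the Plekhg5+/+ SOD1-G93A libraries and 1.66%, 1.67% and 2.2% in the Plekhg5-/- SOD1-G93A libraries. Tgm2 made up 65.8% to 81.7% in all 12 libraries.

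**Figure D3:**
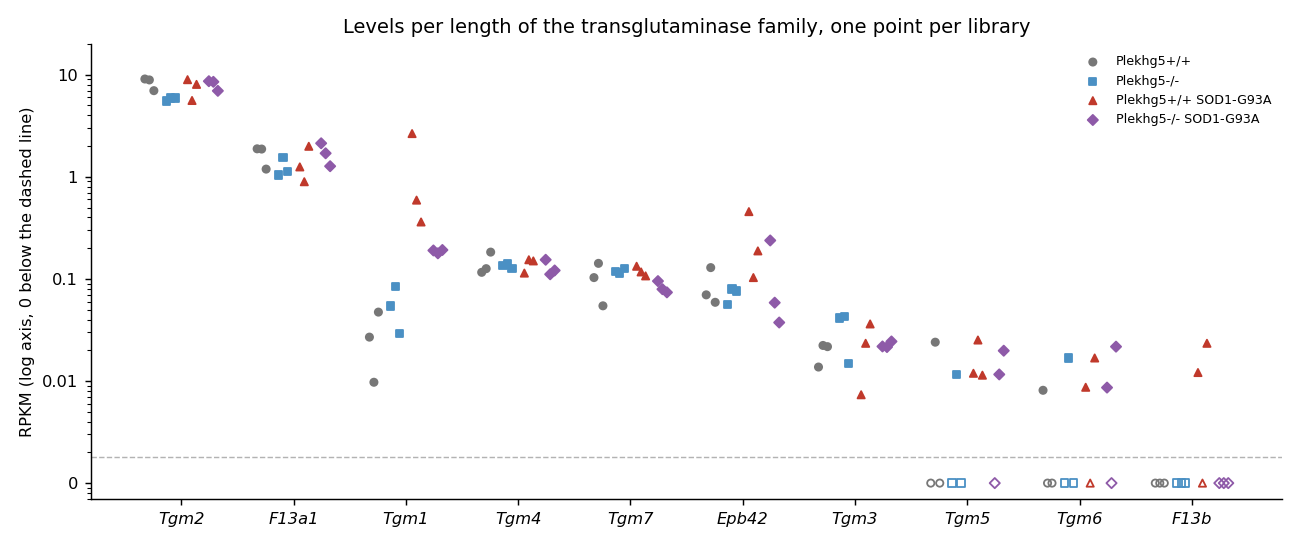
Levels per exon length (RPKM, y axis on a log scale, with libraries at 0 as open symbols below the dashed line) of the 10 transglutaminase family genes (x axis), with a symbol per library and a colour per genotype. Tgm2 and F13a1 hold the highest levels in each genotype, except that the first Plekhg5+/+ SOD1-G93A mouse reaches 2.65 RPKM for Tgm1, and F13b has counts in 2 libraries.

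The other 7 genes of the family held few reads, and 3 of them passed the filter on low counts. Epb42, which encodes the catalytically inactive red cell membrane protein band 4.2, had 10, 17 and 8 counts in Plekhg5+/+ and 61, 13 and 26 counts in Plekhg5+/+ SOD1-G93A libraries. The groups overlapped through the second SOD1-G93A mouse, and the log2 fold change of 1.54 (SE 0.641, adjusted p = 0.227, edgeR) did not pass. Markers of platelets and megakaryocytes were highest in the same first mouse: their summed level was 20.6 CPM there, 4.85 and 7.59 CPM in the other 2 mice of its genotype and 4 to 4.41 CPM in Plekhg5+/+ mice. Over the 12 libraries the log2 levels of Epb42 and of this list had a Pearson correlation of 0.91. The correlation was 0.72 for red cell, 0.72 for disease-associated microglial, 0.69 for microglial and 0.67 for astrocyte markers. Red cell markers summed to 2070 CPM in the third Plekhg5+/+ SOD1-G93A mouse and to 1220 CPM in the first. The part of these cells in the Epb42 values was not tested.

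Tgm4, the prostate transglutaminase, and Tgm7 had 11 to 18 and 7.5 to 19 counts per library. Tgm4 had a log2 fold change of −0.03 between Plekhg5+/+ SOD1-G93A and Plekhg5+/+ mice (SE 0.266, adjusted p = 0.978, edgeR). Tgm7 was below both Plekhg5-/- and Plekhg5+/+ SOD1-G93A mice in all Plekhg5-/- SOD1-G93A libraries, by log2 differences of −0.54 and −0.52 (adjusted p = 0.95 and 0.609, edgeR). Groups were separated in either direction for 12.5% and 19.5% of all genes tested in these comparisons. Tgm3, Tgm5 and Tgm6 had 41.12, 10 and 10 counts in all 12 libraries together. F13b, the carrier subunit of plasma factor XIII, had 3 counts in all, from 2 Plekhg5+/+ SOD1-G93A libraries. None of the 3 tested genes was called in any of the 4 comparisons of genotypes, in which 0.00496% to 2.47% of all genes were called.

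Across the 12 libraries, Tgm2 and F13a1 varied together and Tgm1 varied apart from both. The Pearson correlation of log2 CPM was 0.76 between Tgm2 and F13a1, 0.13 between Tgm1 and Tgm2 and −0.19 between Tgm1 and F13a1. The libraries share genotypes and normalisation, and Tgm1 was selected on its rise in them, so these values are descriptions. The genes most like Tgm1 among all tested were Clec7a (0.992), Plau (0.985), Mpeg1 (0.98), Plek (0.977) and Cd84 (0.976). Clec7a encodes the receptor dectin-1, Plau the urokinase plasminogen activator, Mpeg1 a pore-forming protein of macrophages, Plek the protein kinase C substrate pleckstrin and Cd84 a receptor of the SLAM family. Clec7a was at 2 ± 0.454 CPM in Plekhg5+/+, 3.24 ± 0.802 in Plekhg5-/-, 30.6 ± 28.3 in Plekhg5+/+ SOD1-G93A and 8.57 ± 1.51 in Plekhg5-/- SOD1-G93A mice (SD, n = 3 each), the same order of genotypes as Tgm1.

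The genes most like Tgm2 were Ptprf (0.897), Il1r1 (0.887), Ccnd3 (0.866), Mcub (0.864) and Kctd1 (0.848). Ptprf encodes a receptor tyrosine phosphatase, Il1r1 the signalling receptor of interleukin-1, Ccnd3 a D-type cyclin and Mcub a subunit of the mitochondrial calcium uniporter. Il1r1 was lowest in Plekhg5-/- mice, at 5.12 ± 0.996 CPM, against 8.54 ± 2.21 CPM in Plekhg5+/+ mice (SD, n = 3 each). The genes most like F13a1 were 2900079G21Rik (0.854), Cfb (0.851), Gm46767 (0.85), Dazap1 (0.846) and Mst1r (0.831). Cfb encodes complement factor B and Mst1r the receptor of macrophage-stimulating protein.

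Tgm1 moved with markers of microglia, the resident macrophages of the spinal cord. The summed level of 12 microglial markers, among them Csf1r, Tyrobp and the C1q genes, was 522 to 608 CPM in Plekhg5+/+, 572 to 790 in Plekhg5-/-, 985 to 1830 in Plekhg5+/+ SOD1-G93A and 739 to 824 in Plekhg5-/- SOD1-G93A mice. None of the 12 was at 0 in a genotype. The correlation of log2 levels with Tgm1 over the 12 libraries was 0.96, and it was 0.92 for 12 markers of disease-associated microglia, a list that includes Clec7a. It was 0.91 for astrocyte markers, −0.74 for motoneuron markers and 0.77 for platelet and megakaryocyte markers. Since Tgm1 was selected on its rise with SOD1-G93A, a high correlation with any list that rises in these libraries follows in part from that choice. Per 1000 CPM of microglial markers, Tgm1 was at 0.0603 to 0.252 CPM in Plekhg5+/+ and 0.165 to 0.403 CPM in Plekhg5-/- mice. The corresponding levels were 4.69, 1.94 and 1.11 CPM in the Plekhg5+/+ SOD1-G93A libraries and 0.749, 0.729 and 0.841 CPM in the Plekhg5-/- SOD1-G93A libraries. These ratios use the Tgm1 values on which Tgm1 was selected, and rest on 1 to 9 counts per library without the transgene. Their gap between mice with and without the transgene is therefore only a description. The part of microglial abundance in the Tgm1 values was not tested.

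Keratinocytes are the cells in which Tgm1 is best known. The summed level of 10 keratinocyte markers was 14.8 to 19.1 CPM over all 12 libraries and 14.8 to 17.6 CPM in Plekhg5+/+ SOD1-G93A mice, where 2 of the 10 markers were at 0 in all 3 libraries. The correlation of their log2 level with Tgm1 was −0.38 over the 12 libraries, and their part in the Tgm1 values was not tested. Of 20 genes of the cornified envelope, 10 passed the filter and 0 were called by edgeR between Plekhg5+/+ SOD1-G93A and Plekhg5+/+ mice, beside 2.47% of all genes tested, with a median log2 fold change of −0.03 against 0 for all genes. A list of this length is too short to set 0 calls apart from that share. DESeq2 called 0 as well. Sprr1a, a small proline-rich envelope protein also induced in injured neurons, was at 2.57 ± 0.782 against 1.16 ± 0.43 CPM (SD, n = 3 each), an estimate of 1.14 on the log2 scale (adjusted p = 0.179, edgeR).

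For Tgm2 and F13a1, the highest correlations of the 13 marker lists were with macrophages at the borders of the nervous system and with monocytes. The correlation with the summed log2 level of 10 border-associated macrophage markers was 0.82 for Tgm2 and 0.59 for F13a1, and with 8 monocyte markers 0.74 and 0.73. For F13a1 the fibroblast (0.52) and keratinocyte (0.47) lists came next, close to the border-associated list. For Tgm2 the red cell (0.45), platelet and megakaryocyte (0.43), keratinocyte (0.42) and fibroblast (0.40) lists came next, and the endothelial and astrocyte lists were at 0.26 and 0.15. The border-associated macrophage list summed to 19.2 to 31.2 CPM in Plekhg5+/+, 16.9 to 23 in Plekhg5-/-, 23.7 to 34.2 in Plekhg5+/+ SOD1-G93A and 25 to 33.8 in Plekhg5-/- SOD1-G93A mice. It was thus lower in Plekhg5-/- than in both SOD1-G93A groups without overlap, and overlapped between Plekhg5-/- and Plekhg5+/+ mice. Tgm2 in Plekhg5-/- mice lay below all Plekhg5+/+ and Plekhg5-/- SOD1-G93A libraries. It overlapped Plekhg5+/+ SOD1-G93A mice (19.6 to 21 against 19.8 to 31.7 CPM). The monocyte list summed to 96.7 to 144 CPM in Plekhg5-/- mice and to 168 to 205 CPM in Plekhg5-/- SOD1-G93A mice. A large part of it was the fibronectin gene Fn1, at 73.8 ± 26.5 and 122 ± 5.01 CPM in these genotypes (SD, n = 3 each). Fn1 is also on the list of transglutaminase binding partners, so this sum does not mark monocytes alone. The part of these cells in the Tgm2 and F13a1 values was not tested.

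**Figure D4:**
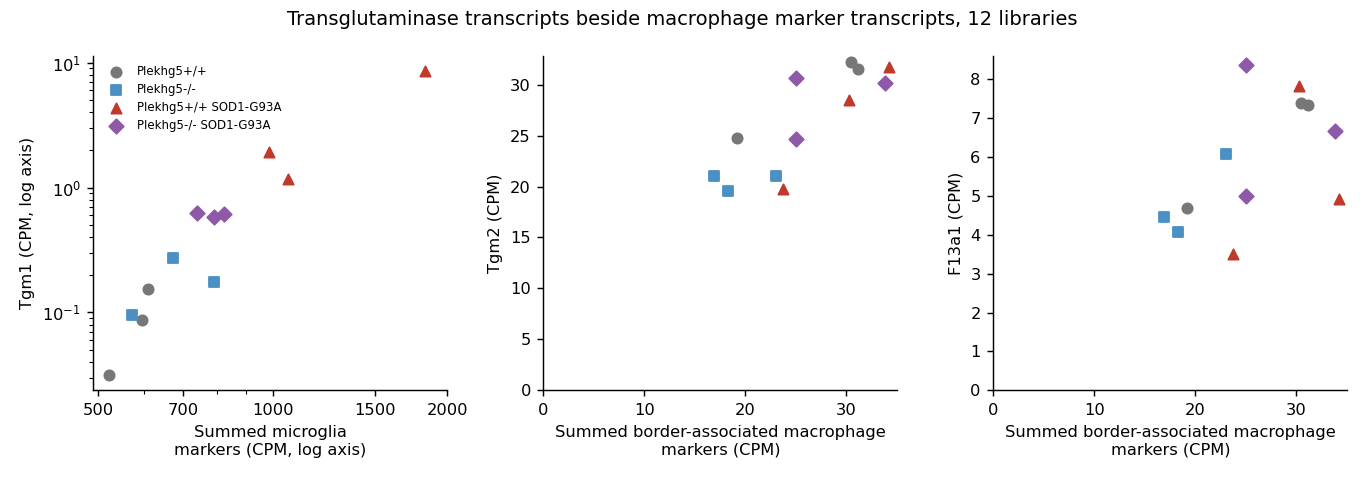
Tgm1 against the summed level of 12 microglial markers (left, log axes), and Tgm2 (middle) and F13a1 (right) against the summed level of 10 border-associated macrophage markers (linear axes), all in CPM with a symbol per library. The Plekhg5+/+ SOD1-G93A mice reach 985 to 1830 CPM of microglial markers and the highest Tgm1 values, whereas Tgm2 and F13a1 are spread across genotypes along their marker axis.

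In Plekhg5+/+ SOD1-G93A against Plekhg5+/+ mice, few genes of the lists related to transglutaminase function were called, beside most of the microglial markers. Of 16 tested substrates and binding partners of transglutaminases, 1 rose, Cd44, a hyaluronan receptor (14.7 ± 1 to 34.9 ± 15.5 CPM, SD, n = 3 each). Its log2 fold change was 1.25 with SE 0.227 (adjusted p = 0.0198, edgeR). The share of all genes called was 2.47%, so a single call says little about the list, and its median log2 fold change was 0.27 against 0 for all genes. A2m, the protease inhibitor alpha-2-macroglobulin, had an estimate of 0.94 (adjusted p = 0.0607) and Serpinf2, the plasmin inhibitor that factor XIII cross-links to fibrin, 3.87 (SE 1.11, adjusted p = 0.0913). Serpinf2 had 3 to 86 counts per Plekhg5+/+ SOD1-G93A library and 0 to 5 per Plekhg5+/+ library, with overlap.

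Of 17 tested genes of coagulation and fibrinolysis, 1 rose, Plau, from 2.04 ± 0.378 to 10 ± 6.37 CPM (SD, n = 3 each), a log2 fold change of 2.29 (SE 0.375, adjusted p = 0.0146, edgeR). This too was a single call beside 2.47% of all genes, and the median of the list was 0.14. Its receptor gene Plaur had an estimate of 0.78 (adjusted p = 0.305), and F9, which encodes coagulation factor IX, 1.24 (adjusted p = 0.0706). Plau is also among the 5 genes most like Tgm1.

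Of 18 tested inducers and regulators of Tgm2, 3 rose, beside 2.47% of all genes tested. The transforming growth factor beta ligand gene Tgfb1 had a log2 fold change of 1.04 (SE 0.196, adjusted p = 0.0198, edgeR), and the receptor genes Tgfbr2 and Tgfbr1 had 0.69 (adjusted p = 0.0295) and 0.77 (adjusted p = 0.0412). The list holds 3 more genes of that pathway, named here after their values were seen: Tgfb2 (0.44, adjusted p = 0.0874), Smad3 (0.27, adjusted p = 0.22) and Tgfb3 (−0.12, adjusted p = 0.656) did not pass. Tgm2 itself, at −0.14, did not pass in the same libraries. The median of the list was 0.25. Tnf, a cytokine gene of the list, had 0 to 4 counts per Plekhg5+/+ and 6 to 17 per Plekhg5+/+ SOD1-G93A library, with an estimate of 2.39 (adjusted p = 0.106). The calls of Cd44, Plau, Tgfb1, Tgfbr1 and Tgfbr2 were all lost without the first Plekhg5+/+ mouse (adjusted p = 0.0715 to 0.116, edgeR), without the second (0.0987 to 0.152) and in a fit of the 2 genotypes alone (0.0898 to 0.156). Tgfb1, Tgfbr1 and Tgfbr2 also lost theirs without the third Plekhg5+/+ mouse (0.0502 to 0.0804), and their estimates kept their sign in each of these fits. Tgfbr1 lost its call as well without a filter on low counts (0.0855) and without any single Plekhg5-/- or Plekhg5-/- SOD1-G93A library (0.0501 to 0.064).

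Of the 12 microglial markers 11 rose (median log2 fold change 1.13), led by Tyrobp at 1.68 and C1qa at 1.57, and 10 of 12 markers of disease-associated microglia rose (median 2.83), led by Cst7 at 5.30 and Itgax at 4.31. Among 9 tested border-associated macrophage markers 1 rose, Ms4a7, and among 8 monocyte markers 1, S100a4. Among 10 astrocyte markers 2 rose, Gfap and Sox9, among 10 oligodendrocyte markers 1, Opalin, and among 10 endothelial markers 1 fell, Ly6c1. Beside the 2.47% of all genes called in this comparison, 1 or 2 calls say little about lists of this length. No gene was called by edgeR among the tested markers of platelets (4), fibroblasts (10), keratinocytes (5), motoneurons (10), Schwann cells (10) and red cells (5). DESeq2 called 3 motoneuron markers lower and 1 platelet marker higher. With its prior on fold changes, DESeq2 called 0 platelet markers and again 3 motoneuron markers lower. DESeq2 called 3 of 15 tested substrates and partners, 2 of 16 genes of coagulation and 4 of 17 regulators of Tgm2, all higher. It also called more of all genes than edgeR in this comparison, so these counts are not set against 2.47%. In the other 3 comparisons of genotypes edgeR called no gene of any of these lists, and DESeq2 was not run on the lists there. The shares of all genes called were 0.0347% between the SOD1-G93A groups, 0.0298% without the transgene and 0.00496% in the Plekhg5-/- background. With shares this small, 0 calls say little about a list. In Plekhg5-/- SOD1-G93A against Plekhg5+/+ SOD1-G93A mice, 0 of 12 microglial and 0 of 12 disease-associated markers had positive estimates (medians −0.63 and −1.18). In Plekhg5+/+ SOD1-G93A against Plekhg5+/+ mice, 9 microglial and 9 disease-associated markers rose without the first SOD1-G93A mouse. Over all genes, 4 were called without the first Plekhg5+/+ mouse, among the lists 1 disease-associated microglial marker, and 2 without the second, none of them of a list. The fit of the 2 genotypes alone called 3 genes, again none of a list.

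The genes around Tgm1 mostly did not share its difference. Of 20 genes within 100 kb of it, 17 were tested, and 12 of these had a log2 fold change within 0.2 of 0 between Plekhg5+/+ SOD1-G93A and Plekhg5+/+ mice. The nearest, Rabggta, which encodes a subunit of Rab geranylgeranyl transferase, lies 1942 bases away and had a log2 fold change of 0.07 (SE 0.0587, adjusted p = 0.564, edgeR). A single neighbour was called: Dhrs1, a short-chain dehydrogenase gene 25098 bases away, from 55739020 to 55745684 on the same strand. Beside 2.47% of all genes called in this comparison, a single call among 17 says little about the stretch. Dhrs1 rose from 70.4 ± 5.03 to 152 ± 58.4 CPM (SD, n = 3 each), a log2 fold change of 1.11 (SE 0.207, adjusted p = 0.0212, edgeR). The call was lost without the first or the second Plekhg5+/+ mouse (adjusted p = 0.0872 and 0.124, edgeR), without a filter on low counts (0.0605) and in the fit of the 2 genotypes alone (0.117). Dhrs1 was at 84.7 ± 12.1 CPM in Plekhg5-/- and 90.9 ± 4.26 CPM in Plekhg5-/- SOD1-G93A mice, with an estimate of −0.74 between the SOD1-G93A groups (adjusted p = 0.402). Irf9, an interferon-signalling gene of the same stretch, had an estimate of 0.53 (adjusted p = 0.128). Of the 3 tested neighbours of Tgm2, none had a log2 fold change beyond 0.2 of 0 in the 4 comparisons and none was called. The shares of all genes called there were 0.00496% to 2.47%, so 0 calls among 3 genes say little. No gene within 100 kb of F13a1 passed the filter.

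**Figure D5:**
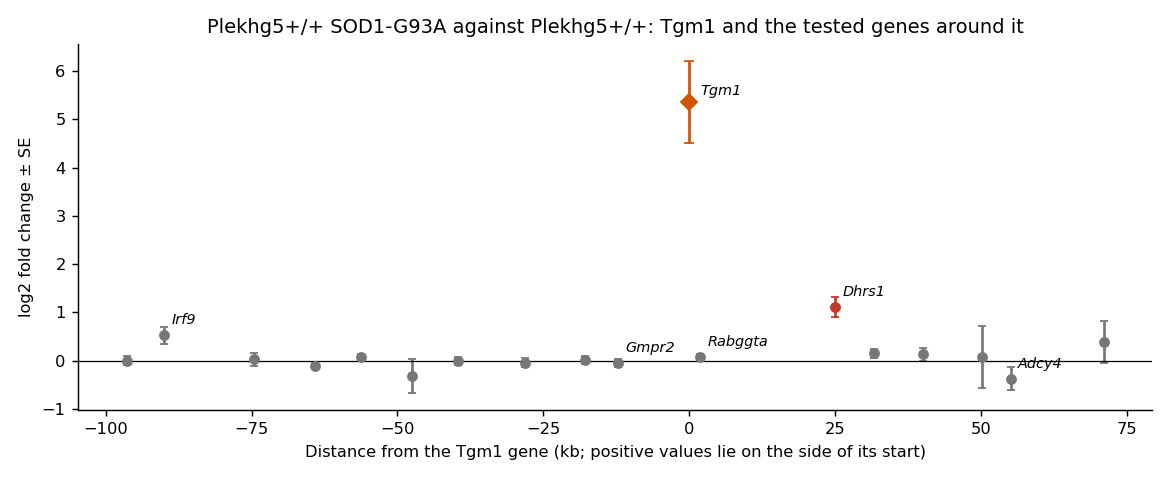
log2 fold change with SE (y axis) in Plekhg5+/+ SOD1-G93A against Plekhg5+/+ mice of Tgm1 (diamond) and of the 17 tested genes within 100 kb of it, by their distance in kilobases (x axis, positive on the side of the Tgm1 start). Tgm1 is at 5.36, the called neighbour Dhrs1 (red) at 1.11, and the other neighbours (grey) at −0.37 to 0.53.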

How the data were processed

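The authors trimmed single-end reads of stranded poly(A) libraries with Cutadapt 2.4, mapped them with STAR 2.7.2b to GRCm38.p6 plus the human SOD1 cDNA, and counted them by strand on RefSeq exons with featureCounts 1.6.4, splitting reads with several matches into fractions. The values the authors deposited are therefore fractional counts, a kind of expected counts that need not be whole, not normalized, and 17.3% to 18.1% of a library's entries were not whole. All 12 columns were matched to mice by name. Mice of a genotype were no copies of each other: their counts gave a chi-square of 5.43 to 25.9 per degree of freedom. In Plekhg5+/+ and Plekhg5-/- mice, pairs with replicate 1 gave 21.2 to 25.9, and replicates 2 and 3 gave 6.98 and 7.12. The pairs gave 15.3 to 19.7 in Plekhg5+/+ SOD1-G93A and 5.43 to 8.09 in Plekhg5-/- SOD1-G93A mice.

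Counts were rounded. The 20155 genes kept by filterByExpr of edgeR 4.0.16 (R 4.3.3) were normalized with TMM and fitted with robust quasi-likelihood, genotype being the only term, over all 12 libraries. P-values were adjusted by Benjamini-Hochberg over all genes tested (threshold 0.05). The study's methods use DESeq2 with a prior on fold changes, which served as an alternative (DESeq2 1.42.0). Log2 CPM used a prior count of 2, and RPKM the deposited exon lengths. Members, the 5 gene lists and the 13 marker lists were chosen with earlier results of these data known. Tgm1, chosen for its rise with SOD1-G93A, is reported with no test. Named genes are the members, their family, the 5 genes most correlated with each member, genes within 100 kb, and at most 4 genes per list with the largest change in Plekhg5+/+ SOD1-G93A against Plekhg5+/+ mice. Models were tested on simulated data. Promoter sequences are those of RefSeq. Alternatives were other tests, normalization, filters, fits of 2 genotypes, a replicate block, Y-linked transcripts as covariate and each library left out. List counts with DESeq2, without single libraries or in 2 genotypes, and the refits of single called genes were added after the data were seen. Python 3.11.15 and matplotlib 3.10.9 drew the plots. The replicate numbers come from the mouse labels and were not taken as pairs.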

Additional observations from a re-analysis of the deposited data

Results flagged for a closer look

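The Tgm1 values of mice with and without Plekhg5 fell on opposite sides of their reference mean without and with the transgene, although no difference was established without it. Each Plekhg5-/- library lay above the Plekhg5+/+ mean (0.0947 to 0.271 against 0.0905 CPM), and each Plekhg5-/- SOD1-G93A library lay below the Plekhg5+/+ SOD1-G93A mean (0.577 to 0.621 against 3.89 CPM). The log2 difference between these effects was −3.64. It was not tested, because Tgm1 was selected on its rise with SOD1-G93A in these libraries. The Plekhg5-/- and Plekhg5+/+ libraries overlapped, with 3 to 9 and 1 to 5 counts, and the interval of their count ratio (0.852 to 5.05) included 1.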

How the results depend on the processing

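The calls for Tgm2 and F13a1 did not change: neither passed 0.05 in any comparison under the 8 alternatives or with any library left out, where the smallest adjusted p was 0.16 (Tgm2, averaged effect, without the second Plekhg5+/+ SOD1-G93A mouse). The sign of an estimate turned in some fits with a library left out. Tgm2 then ranged from −0.29 to 0.01 in Plekhg5+/+ SOD1-G93A against Plekhg5+/+ mice and from −0.07 to 0.24 between the SOD1-G93A groups, each turning without the second Plekhg5+/+ SOD1-G93A mouse, and F13a1 from −0.08 to 0.21 for the averaged effect. The ranges were −0.56 to 1.05 for Epb42 and −0.2 to 0.02 for Tgm4 in Plekhg5-/- SOD1-G93A against Plekhg5-/- mice, and −0.15 to 0.19 for Tgm4 and −0.05 to 0.55 for Tgm7 in Plekhg5+/+ SOD1-G93A against Plekhg5+/+ mice.

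Tgm1 had too few counts for the filter of 10 counts in every library, and kept its directions under all other alternatives. DESeq2's prior shrinks imprecise fold changes towards 0 by construction and gave Tgm1 0.60 in Plekhg5+/+ SOD1-G93A against Plekhg5+/+, −0.49 between the SOD1-G93A groups, 0.09 in Plekhg5-/- SOD1-G93A against Plekhg5-/-, −0.51 for the interaction and 0.34 for the average. With each library left out, Tgm1 in these 5 comparisons ranged from 4.02 to 5.9, −3.11 to −1.34, 1.43 to 2.12, −4.18 to −2.31 and 2.87 to 3.81, the smallest size arising without the first Plekhg5+/+ SOD1-G93A mouse in all but the third.

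The number of genes called depended on the fit, and the cause was not tested. DESeq2 without and with the prior called 1159 and 1200 genes in Plekhg5+/+ SOD1-G93A against Plekhg5+/+, 75 and 115 between the SOD1-G93A groups, 34 and 32 in Plekhg5-/- against Plekhg5+/+, 43 and 41 in Plekhg5-/- SOD1-G93A against Plekhg5-/-, 95 and 112 for the interaction and 822 and 821 for the average. With only the 2 genotypes compared in the fit, edgeR called 3, 11 and 20 genes in the first, the second and the last of the 4 comparisons of genotypes. The filter of 10 counts left 0 genes in the last of these, and no filter gave 1 for the interaction. With each library left out the counts ranged from 2 to 771, 4 to 8, 5 to 59, 1 to 9, 0 to 40 and 10 to 560, in the same order, and the lowest values of the first and the averaged comparison arose without the second Plekhg5+/+ mouse. Without the first Plekhg5+/+ mouse 4 genes were called in the first comparison.

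The replicate number as a block called 417 genes and Y-linked transcripts as a covariate 412 for the average. The block changed no call of Tgm2 or F13a1. Same-numbered samples correlated at −0.16 to 0.32 in their deviations from the group means, with 5 of 18 pairs above 0.1, and 6 of 12 libraries correlated best with their own number, so the numbers were not taken as pairs. The highest values, 0.32 and 0.3, were between replicate 1 libraries, whose remaining pairs lay at −0.06 to 0.12. With Spearman correlation, Clec7a and Plau tied at rank 5.5 for Tgm1, Il1r1 ranked 1 for Tgm2, Cfb and Mst1r tied at rank 2 for F13a1, and the other 10 named genes ranked 9 to 51.5. At 1 to 9 Tgm1 counts in libraries without the transgene, depth limits every Tgm1 ratio.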
